A study of Arabidopsis thaliana with 21 samples.

Results

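Transcripts of 5 heat shock genes were followed through deacclimation in rosettes of Arabidopsis thaliana (Col-0): the transcription factor HSFA2 (AT2G26150) and the small heat shock proteins HSP17.6B (AT2G29500), HSP17.8 (AT1G07400), HSP15.7 (AT5G37670) and HSP23.5 (AT5G51440). The 5 genes were chosen by name, with earlier results of these data known, among 17142 genes that could be named on the array. Each has 1 of the 31329 probe sets analysed. The platform annotation names the 4 small heat shock proteins. The probe set of HSFA2 is named only through the list of regulated transcripts that accompanies the study, so HSFA2 comes from a set already selected for a change.

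Cold acclimated plants had spent 3 days at 4 °C under 90 µmol of light per square metre per second. Deacclimated plants were cold acclimated in the same way and then returned for 2, 4, 6, 12 or 24 h to the greenhouse, with day and night temperatures of 20 and 18 °C and at least 200 µmol of light. Non-acclimated plants had stayed in the greenhouse. All 7 groups were kept in days of 16 h in this phase. The daily light period had been 8 h for all plants during their first 3 weeks, and cold acclimation began at an age of 4 weeks. Each group comprised 3 independent biological replicates, every replicate being RNA from 10 pooled rosettes on 1 array. Light intensity increased along with temperature at the transfer. The study describes a transfer in the morning and sampling in daylight, without a clock hour for each group, so responses to warmth, to light and to the time of day cannot be told apart.

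Heat shock factors bind heat shock elements in promoters and switch on chaperone genes when proteins begin to unfold. HSFA2 is itself strongly induced by heat and by bright light, and it prolongs the expression of chaperone genes after the first response. Small heat shock proteins hold unfolding proteins without using ATP until ATP-dependent chaperones such as HSP101 and the Hsp70 system refold them. Their families differ in location: HSP17.6B and HSP17.8 are class I proteins of the cytosol, HSP15.7 is peroxisomal and HSP23.5 mitochondrial.

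Levels are log2 expression values after RMA, in which a difference of 1 is a 2-fold difference. A gene counts as changed where limma, fitted to all 21 arrays at once, gave a Benjamini-Hochberg adjusted p under 0.05 over all probe sets and a log2 change beyond 1. Array medians lay between 8.11 and 8.43, the highest belonging to 2 h replicate 1, which also received the lowest array weight, 0.375. Correlations between arrays of a group were at least 0.984. Of 22 marker genes of leaf, root, flower and seed, 3 were named on the array. The leaf marker RCA, encoding Rubisco activase, averaged between 12.3 and 12.7 in all groups and the root hair gene EXPA7 between 4.46 and 4.78. PYK10, a beta-glucosidase typical of roots, averaged 8.68 in cold acclimated plants, 8.96, 9.36, 9.83, 10.2 and 10.2 after 2, 4, 6, 12 and 24 h, and 10.7 in non-acclimated plants. Like the heat shock genes, PYK10 was lowest in cold acclimated plants, but its rise at 2 h was 0.27 only (adjusted p = 0.407, limma). At 2 h it differed from non-acclimated plants by -1.74 (adjusted p = 3.56e-05, limma), where HSFA2 and HSP17.8 differed by 2.00 and 1.63. The part of root material in the changes of the heat shock genes was not tested. In RNA from whole rosettes, fewer cells expressing a gene and less RNA per cell cannot be told apart.

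HSFA2 had its lowest levels in the cold and its highest after 2 h of warming. The 3 arrays read 3.58, 3.61 and 4.23 in cold acclimated plants, 10.06, 9.68 and 10.60 after 2 h, 9.06, 6.27 and 8.93 after 4 h, 6.91, 5.59 and 5.97 after 6 h, 5.03, 7.32 and 5.90 after 12 h, 7.52, 6.96 and 7.67 after 24 h, and 8.43, 8.04 and 7.88 in non-acclimated plants. All 15 arrays of deacclimated plants lay above all arrays of cold acclimated plants, and the 2 h arrays lay above every other array. Ordered by the group mean, 2 h came first with 10.11 ± 0.46 (SD, n = 3), then non-acclimated plants with 8.11 ± 0.28, 4 h with 8.09 ± 1.57, 24 h with 7.38 ± 0.37, 6 h with 6.16 ± 0.68, 12 h with 6.08 ± 1.16 and cold acclimated plants with 3.80 ± 0.37. Of these neighbours, 2 h and non-acclimated plants differed past both thresholds, as did 12 h and cold acclimated plants, and the 4 pairs in between did not.

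HSP23.5, the mitochondrial member, followed a similar course. It read 5.18, 3.77 and 4.35 in cold acclimated plants, 7.97, 8.01 and 8.94 after 2 h, 8.34, 6.05 and 8.57 after 4 h, 7.39, 6.33 and 6.12 after 6 h, 5.80, 8.03 and 8.11 after 12 h, 7.17, 6.34 and 6.80 after 24 h, and 7.70, 7.27 and 7.23 in non-acclimated plants. No array of deacclimated plants reached down to the cold acclimated arrays, while at 4 h and 12 h arrays lay on both sides of the non-acclimated range, and at 6 h 1 array lay inside it and the other 2 below. From high to low the group means were 8.30 (2 h), 7.65 (4 h), 7.40 (non-acclimated), 7.31 (12 h), 6.77 (24 h), 6.61 (6 h) and 4.44 (cold acclimated), and among neighbours in this order only the last pair differed past both thresholds.

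HSP17.8 gave the most transient profile of the 5. Its arrays read 6.35, 5.99 and 6.78 in cold acclimated plants, 9.02, 9.10 and 10.24 after 2 h, 8.47, 7.38 and 8.76 after 4 h, 6.92, 6.93 and 6.74 after 6 h, 6.19, 7.28 and 7.71 after 12 h, 7.79, 6.65 and 6.97 after 24 h, and 8.27, 7.43 and 7.78 in non-acclimated plants. Arrays of 2 h and 4 h cleared those of cold acclimated plants, and those of 6 h, 12 h and 24 h overlapped with them. The means ran in the order 2 h (9.45), 4 h (8.20), non-acclimated (7.83), 24 h (7.14), 12 h (7.06), 6 h (6.86) and cold acclimated (6.37), and no neighbouring groups differed past both thresholds.

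HSP15.7 was highest at 4 h. In cold acclimated plants its arrays read 7.08, 5.72 and 6.04, then 8.64, 8.10 and 8.03 after 2 h, 8.95, 8.28 and 8.65 after 4 h, 8.09, 7.84 and 7.93 after 6 h, 7.61, 8.17 and 8.26 after 12 h, 7.78, 7.52 and 7.16 after 24 h, and 7.73, 6.63 and 7.68 in non-acclimated plants. Cold acclimated replicate 1 lay inside the range of non-acclimated plants but under every deacclimated array. Its means were 8.63 (4 h), 8.25 (2 h), 8.01 (12 h), 7.95 (6 h), 7.48 (24 h), 7.35 (non-acclimated) and 6.28 (cold acclimated), with the last pair alone past both thresholds.

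HSP17.6B moved least and showed no peak. It read 9.52, 9.27 and 9.78 in cold acclimated plants, 10.75, 10.61 and 10.34 after 2 h, 10.93, 10.64 and 10.76 after 4 h, 11.16, 10.52 and 10.67 after 6 h, 11.13, 10.89 and 11.22 after 12 h, 11.22, 11.06 and 10.91 after 24 h, and 11.07, 10.39 and 10.69 in non-acclimated plants. The 3 cold acclimated arrays were the lowest of the 21 and the other groups overlapped with non-acclimated plants. The means ran through 11.08 (12 h), 11.06 (24 h), 10.78 (6 h and 4 h alike), 10.72 (non-acclimated) and 10.57 (2 h) down to 9.53 (cold acclimated), and of the neighbours in this order only the last pair differed past both thresholds.

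**Figure D1:**
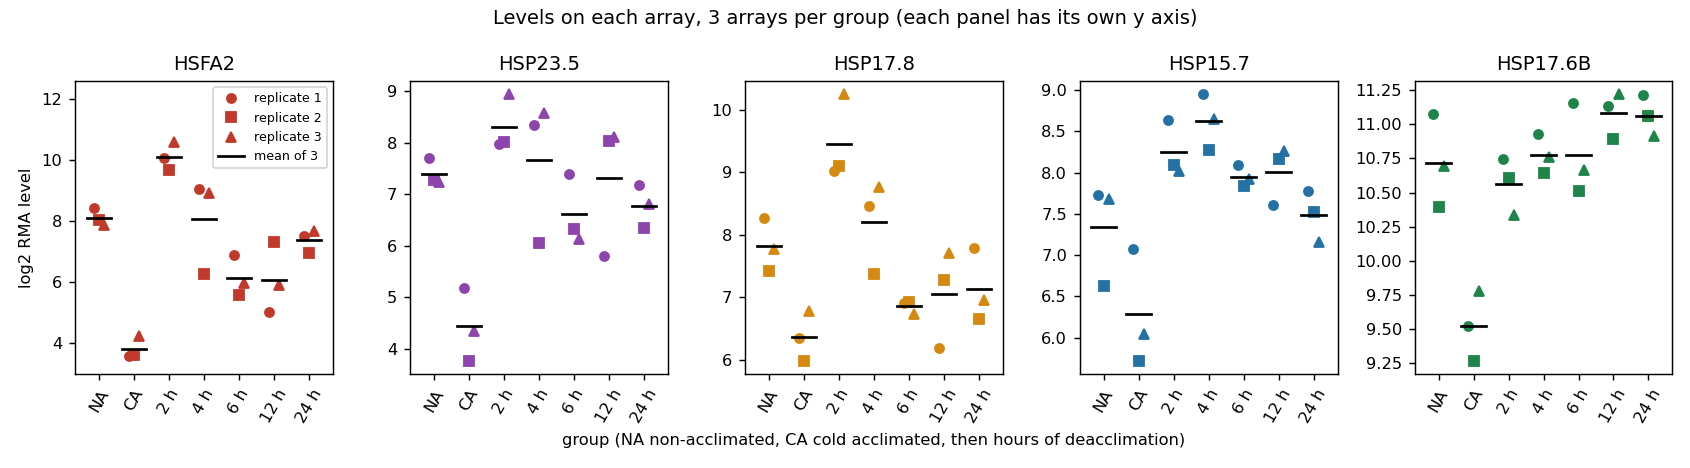
Log2 RMA level (y axes, a separate scale in each panel) of the 5 genes on each array, for non-acclimated (NA) plants, cold acclimated (CA) plants and plants deacclimated for 2 to 24 h; symbols mark the replicates and bars the mean of 3 arrays. CA plants have the lowest mean in every panel, HSFA2, HSP23.5 and HSP17.8 have their highest mean at 2 h, and 4 h replicate 2 and 12 h replicate 1 stand low in these 3 panels.

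The first question was how fast the heat shock genes respond when cold acclimated plants are warmed. All 5 genes were higher than in cold acclimated plants within 2 h. HSFA2 rose by 6.31 on the log2 scale, the highest measured change of the 31329 probe sets, and HSP23.5 by 3.87. No fold is given for these 2 genes, because their cold acclimated means of 3.80 and 4.44 were above only 13.9% and 20.7% of all probe sets. Both means were also below every group mean of the root hair gene EXPA7. No background signal was available against which such levels could be set. The sizes, intervals and ranks of changes against cold acclimated plants are therefore those of the RMA values. HSP17.8 rose 8.45-fold, HSP15.7 rose 3.93-fold and HSP17.6B rose 2.06-fold. The 5 of 5 genes called higher at 2 h stand beside 2.88% of all probe sets, and the same 5 were called at 4 h, where the share of all probe sets was 3.22%. The 5 were chosen with earlier results of these data known, so setting these counts beside the shares tests nothing. Of the 9 other small heat shock protein genes named on the array, 3 were called higher at 2 h.

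From 6 h on 4 of the 5 genes were called higher, and the shares of all probe sets at 6, 12 and 24 h were 4.17%, 4.41% and 4.15%. The exception was HSP17.8, with log2 changes of 0.49 at 6 h (95% interval -0.43 to 1.41, adjusted p = 0.464, limma), 0.68 at 12 h (adjusted p = 0.273) and 0.76 at 24 h (adjusted p = 0.216). The other 4 genes were thus called at all 5 times. All 5 comparisons share the 3 cold acclimated arrays, so their calls are not independent of each other.

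After 2, 4, 6, 12 and 24 h the log2 change of HSFA2 was 6.31, 4.29, 2.35, 2.28 and 3.58, with a standard error of 0.62 (n = 3 per group, adjusted p between 5.22e-06 and 0.00951, limma). Its change was the second highest of all probe sets at 4 h, the 146th at 6 h, the 137th at 12 h and the 15th at 24 h. HSP23.5 gave 3.87, 3.22, 2.18, 2.88 and 2.33 at these times (standard error 0.65, adjusted p between 0.00053 and 0.0177, limma). The log2 change of HSP15.7 was 1.97, 2.35, 1.67, 1.73 and 1.20 (standard error 0.33, adjusted p at most 0.0107, limma). For HSP17.6B the values were 1.04, 1.25, 1.25, 1.56 and 1.54 (standard error 0.19, adjusted p at most 0.00115, limma), with the lowest value at 2 h. The change of HSP17.8 was 3.08 at 2 h (standard error 0.43, adjusted p = 0.000131, limma) and 1.83 at 4 h (adjusted p = 0.00555).

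Several of these calls depended on 1 array. The rise of HSP17.6B at 2 h lies just past the fold threshold, and it was 0.91 without cold acclimated replicate 2, 0.95 without 2 h replicate 1 and 0.89 with all arrays set to a common median. HSP23.5 at 6 h was no longer called without cold acclimated replicate 2 (adjusted p = 0.0811), cold acclimated replicate 3 (adjusted p = 0.0508) or 6 h replicate 1 (adjusted p = 0.0820, limma). HSFA2 at 12 h was 1.66 without 12 h replicate 2 (adjusted p = 0.0642) and 2.80 without 12 h replicate 1 (adjusted p = 0.00432, limma). At 24 h HSP15.7 and HSP23.5 were lost together without cold acclimated replicate 2, with log2 changes of 0.92 and 2.00 (adjusted p = 0.0673 and 0.0532, limma), which left 2 genes called.

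**Figure D2:**
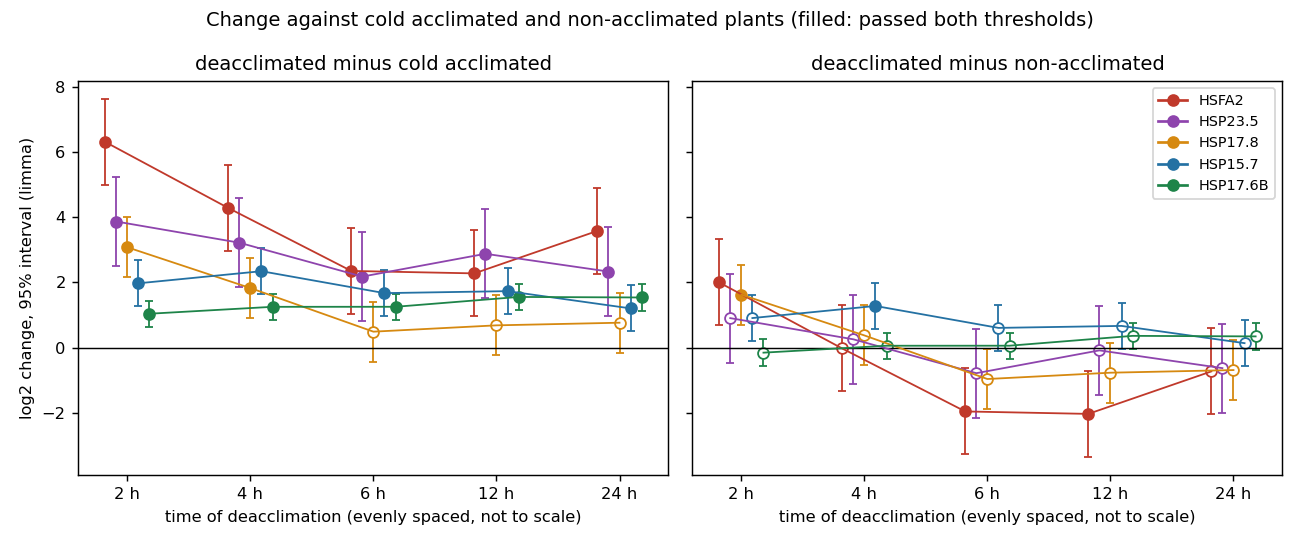
Log2 change (y axis) with its 95% interval from limma against the time of deacclimation (x axis, evenly spaced), relative to cold acclimated plants on the left and non-acclimated plants on the right. Filled points passed both thresholds: at 2 h and 4 h all 5 genes are filled on the left, and from 6 h HSP17.8 is open there, while on the right 5 points are filled in all.

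The second question was how these genes differed between plants after 3 days of cold and plants never in it. Cold acclimated plants also had less light, 90 against at least 200 µmol, and stood in a growth cabinet. Differences from cold, from light and from the place of growth cannot be told apart. All 5 were lower in cold acclimated than in non-acclimated plants, where 4.26% of all probe sets were called lower, and for 4 of the 5 all cold acclimated arrays lay below the non-acclimated ones, as they did for 20.9% of all probe sets. HSFA2 fell by 4.31 on the log2 scale (95% interval -5.63 to -2.99, adjusted p = 7.56e-05, limma), to a cold acclimated level not shown to be above background. HSP23.5 fell by 2.96, with the same limit (standard error 0.65, adjusted p = 0.00233, limma), and HSP17.6B fell by 1.19 (standard error 0.19, adjusted p = 0.000189, limma). The decreases of HSP17.8 and HSP15.7 were closer to the thresholds. HSP17.8 fell by 1.45 (adjusted p = 0.0184), but not past the threshold without non-acclimated replicate 1 (adjusted p = 0.0752) or cold acclimated replicate 2 (adjusted p = 0.0769, limma). HSP15.7 fell by 1.07 (adjusted p = 0.0234), its arrays overlapped, and the call was lost without non-acclimated replicate 1 or 3 or cold acclimated replicate 2 or 3 (adjusted p between 0.0864 and 0.125, limma). It was also lost after a repeated quantile normalization, at -0.99 (adjusted p = 0.0296), and with only the 6 arrays of these groups (adjusted p = 0.126, limma). Without non-acclimated replicate 1 or cold acclimated replicate 2, 3 of the 5 genes were called.

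The last question was whether the genes went past the level of plants that were never cold, and whether they settled at it. At 2 h, 2 of the 5 were above non-acclimated plants, beside 2.27% of all probe sets. HSFA2 was higher by 2.00 (95% interval 0.68 to 3.32, adjusted p = 0.0306, limma), and HSP17.8 by 1.63 (95% interval 0.71 to 2.54, adjusted p = 0.0134, limma). The arrays of HSP15.7 and HSP23.5 also lay wholly above the non-acclimated ones, with log2 differences of 0.91 for either (adjusted p = 0.0635 and 0.359, limma). The share of all probe sets separated in this way was not counted. HSP17.6B differed by -0.15 (95% interval -0.56 to 0.25).

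At 4 h HSP15.7 alone was above non-acclimated plants, by 1.28 (standard error 0.33, adjusted p = 0.0130, limma), with 2.20% of all probe sets called higher, whereas HSFA2 differed by -0.03 with an interval of -1.35 to 1.29. By 6 h HSFA2 was below non-acclimated plants, by -1.96 (95% interval -3.28 to -0.64, adjusted p = 0.0330, limma), and by 12 h, at -2.03 (95% interval -3.35 to -0.71, adjusted p = 0.0352, limma). It was the 1 gene of the 5 called lower at either time, beside 3.57% of all probe sets at 6 h and 2.65% at 12 h. HSP17.8 differed by -0.96 at 6 h and by -0.77 at 12 h (adjusted p = 0.135 and 0.277, limma).

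At 24 h 0 of the 5 genes were called against non-acclimated plants, 0 had an unadjusted p under 0.05 in limma, and 0.0383% and 0.00638% of all probe sets were called higher and lower. The intervals at 24 h still ran from -2.05 to 0.59 for HSFA2, from -1.99 to 0.73 for HSP23.5 and from -1.61 to 0.23 for HSP17.8. Each of these intervals includes a 2-fold difference. For HSFA2 and HSP23.5 the 3 arrays of 24 h all lay below the non-acclimated ones, and no share of all probe sets was counted for this. The 5 comparisons share the 3 non-acclimated arrays.

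The calls against non-acclimated plants were the least stable. HSFA2 at 2 h was lost without 2 h replicate 1 or 3 or non-acclimated replicate 2 or 3 (adjusted p between 0.0701 and 0.0984, limma), and HSP17.8 without 2 h replicate 3 or non-acclimated replicate 2 (adjusted p = 0.0685 and 0.0590), so that 0 genes were left without 2 h replicate 3 or without non-acclimated replicate 2. HSP15.7 was added at 2 h without non-acclimated replicate 1, at 1.10 (adjusted p = 0.0489, limma). Its call at 4 h was lost without 4 h replicate 1 or non-acclimated replicate 2 (adjusted p = 0.0605 and 0.0776, limma). HSFA2 at 6 h held only without 6 h replicate 1, with adjusted p between 0.0610 and 0.122 in the other 5 cases, and at 12 h only without 12 h replicate 2, with adjusted p between 0.0688 and 0.164 in the others (limma).

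The genes were also compared between the times themselves. The early peak of HSFA2 and HSP17.8 had passed by 6 h. Relative to 2 h, HSFA2 had log2 changes of -3.96, -4.03 and -2.73 at 6, 12 and 24 h (standard error 0.62, adjusted p = 0.00135, 0.000347 and 0.00464, limma). HSP17.8 gave -2.59, -2.39 and -2.31 at these times (standard error 0.43, adjusted p = 0.00218, 0.00121 and 0.00115, limma). These 2 genes were called lower at each of the 3 times, beside 0.868%, 1.91% and 2.12% of all probe sets, and the calls held without any 1 of the arrays compared. The remaining 3 genes were not called against 2 h, and the log2 changes of HSP23.5 were -1.69, -0.99 and -1.53 (adjusted p = 0.137, 0.341 and 0.103, limma). HSP17.6B had values of 0.21, 0.52 and 0.50 (adjusted p = 0.581, 0.0800 and 0.0737, limma).

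HSP15.7, with its later maximum, was lower at 24 h than at 4 h by -1.14 (standard error 0.33, adjusted p = 0.0255, limma), as the 1 gene called of the 5, beside 1.86% of all probe sets. That call was lost without 4 h replicate 1 or 3 or 24 h replicate 2 or 3 (adjusted p between 0.0605 and 0.103, limma). HSFA2 differed by -0.70 between 24 h and 4 h (adjusted p = 0.519), and by -1.61 without 4 h replicate 2 (adjusted p = 0.0489, limma). HSP17.8 differed by -1.06 (adjusted p = 0.109), and likewise gained a call without 4 h replicate 2, at -1.48 (adjusted p = 0.0398, limma). The increase of HSFA2 from the later trough was not called: 24 h minus 6 h gave 1.23 (adjusted p = 0.204) and 24 h minus 12 h gave 1.303 (95% interval -0.02 to 2.62, adjusted p = 0.260, limma). For 24 h minus 6 h, 0 of the 5 genes were called, beside 2.94% of all probe sets called higher and 2.39% called lower. The comparisons with 2 h, and those of 24 h with 4 h and 6 h, were added after the values were seen.

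Between successive times 0 of the 5 genes were called in limma, in steps where few probe sets changed at all. Lower calls made up 0.0575% of all probe sets from 2 h to 4 h, 0.0192% from 4 h to 6 h, 0.316% from 6 h to 12 h and 1.02% from 12 h to 24 h, and higher calls 0.105%, 0.0287%, 0.201% and 1.59%. An unadjusted p under 0.05 was reached by 2 genes in each of the first 2 steps, HSFA2 and HSP17.8, and by 0 genes in the later 2. HSFA2 changed by -2.03 from 2 h to 4 h (adjusted p = 0.168) and by -1.93 from 4 h to 6 h (adjusted p = 0.690), and HSP17.8 by -1.25 and -1.34 (adjusted p = 0.218 and 0.701, limma). With p adjusted over the 15 comparisons together, HSFA2 passed in both of these steps (adjusted p = 0.0351 and 0.0445) and HSP17.8 in the second (adjusted p = 0.0456, limma).

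HSFA2, HSP23.5 and HSP17.8 also varied together among replicates of a group. In 4 h replicate 2 the level lay below the mean of the other 2 arrays by -2.72 for HSFA2, -2.40 for HSP23.5 and -1.24 for HSP17.8, and in 12 h replicate 1 by -1.58, -2.28 and -1.31. The same arrays deviated by -0.20 and 0.08 for HSP17.6B and by -0.52 and -0.60 for HSP15.7, and their medians of 8.15 and 8.18 were in the range of the other arrays. Low values in 4 h replicate 2 were not confined to these genes. HSP101 read 8.99 there beside 9.84 and 10.26, and the small heat shock protein gene HSP17.6A 5.89 beside 7.32 and 7.96. HSP26.5, of the same family, was highest there, at 5.94 beside 5.65 and 4.75. Without 4 h replicate 2 the log2 change against cold acclimated plants was 5.19 for HSFA2, 4.02 for HSP23.5 and 2.24 for HSP17.8 at 4 h, and without 12 h replicate 1 it was 3.64 for HSP23.5 at 12 h.

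Across the 21 arrays, Pearson's r was 0.875 between HSFA2 and HSP23.5, 0.891 between HSFA2 and HSP17.8, and 0.816 between HSP23.5 and HSP17.8. After the group means had been taken off, these were 0.829, 0.681 and 0.8255. HSFA2 and HSP15.7 gave 0.620 over the arrays and 0.292 within groups, and HSFA2 and HSP17.6B gave 0.472 and 0.235. These are descriptions of arrays that share their groups and their replicate numbers, not tests.

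**Figure D3:**
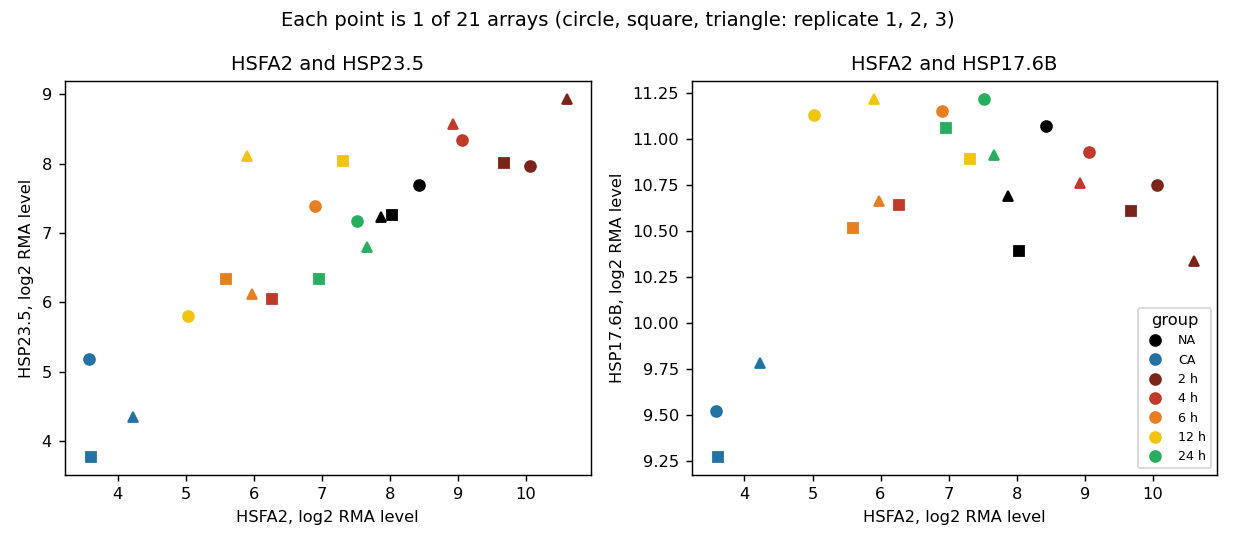
Log2 RMA level of HSFA2 (x axes) against that of HSP23.5 (left, y axis) and HSP17.6B (right, y axis), each point being 1 of the 21 arrays, coloured by group and shaped by replicate. On the left the points run from the cold acclimated arrays at the lower left to 2 h at the upper right (r = 0.875), while on the right the cold acclimated arrays lie apart at the bottom and the other groups form no common line (r = 0.472).

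The genes whose profiles were most like those of the 5 were sought among the probe sets with a name. For HSFA2 the 5 highest values of r over the 21 arrays belonged to AT5G47830 (0.931), the disaggregase gene HSP101 (0.9245), AT2G20560 (0.923), which encodes a DNAJ family co-chaperone, AT2G27580 (0.918), a zinc finger gene of the stress-associated protein family, and the splicing factor SR45a (0.903). HSP23.5 was closest to ROF2 (AT5G48570, r = 0.951), a heat-induced FKBP immunophilin that binds Hsp90, followed by HSP101 (0.9295) and SR45a (0.926). HSP17.8 had HSFA2 itself second (0.891), between AT5G65240 (0.9115) and AT2G27580 (0.888).

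Different genes came first for the other members. The profiles nearest to HSP15.7 were those of AT1G75460 (0.939), AT3G01360 (0.894) and AT4G19160 (0.885). HSP17.6B was most like AT2G21185 (0.948), Lhca6 (0.939), a light-harvesting protein of photosystem I, and AT1G69510 (0.933), and HSFA2 took rank 2635 in its likeness among the 17351 named probe sets. The 5 genes closest to HSFA2 had log2 changes at 2 h of 0.82 (AT5G47830), 2.27 (HSP101), 1.79 (AT2G20560), 0.92 (AT2G27580) and 2.23 (SR45a), with adjusted p of at most 0.000433 (limma), beside 6.31 for HSFA2. ROF2 gave 3.00 beside 3.87 for HSP23.5, and AT2G21185 gave 0.76 beside 1.04 for HSP17.6B.

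Beyond the 4 members, the small heat shock protein family had 9 further genes named on the array, 13 of a list of 19 in all. At 2 h, 7 of the 13 were called higher than in cold acclimated plants and 0 lower, then 7 at 4 h and 5 at each of 6 h, 12 h and 24 h, beside 2.88%, 3.22%, 4.17%, 4.41% and 4.15% of all probe sets called higher. For the times 2, 4, 6, 12 and 24 h the median log2 change of the 13 was 1.04, 1.25, 0.49, 0.79 and 0.76, beside medians of 0.058, 0.010, 0.029, 0.0093 and 0.0043 over all probe sets. In cold acclimated plants 7 of the 13 were lower than in non-acclimated plants and 0 higher, beside 4.26% of all probe sets called lower, with a median of -1.07 beside -0.0020. The 13 include the 4 members, which were chosen with earlier results of these data known. Among the 9 other genes 3, 3, 2, 2 and 2 were called higher at these times and 0, 1, 1, 1 and 0 lower. Their median log2 changes were 0.68, 0.50, 0.39, 0.74 and 0.55. In the cold 3 of the 9 were called lower and 0 higher, with a median of -0.70. Leaving out single arrays gave 6 or 7 of the 13 genes called higher at 2 h and between 3 and 5 at 24 h, with 3 at 24 h without cold acclimated replicate 2.

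The further 3 genes called at 2 h were HSP18.5, HSP17.4-CIII and HSP17.6A. HSP18.5, a cytosolic protein, rose and stayed high, with log2 changes after 2 and 24 h of 3.11 and 2.74 against cold acclimated plants (standard error 0.29, adjusted p = 3.49e-06 and 3.04e-06, limma). Its arrays read 10.2, 10.5 and 11.1 after 2 h, against 7.48, 6.96 and 8.08 in cold acclimated plants. HSP17.4-CIII, the class III protein, changed by 2.33, 1.25 and 1.81 after 2, 6 and 24 h (standard error 0.23, adjusted p no more than 0.000491, limma). HSP17.6A, a class I gene like HSP17.8, gave 2.63 at 2 h (standard error 0.41, adjusted p = 0.000293) and 1.46 at 4 h (adjusted p = 0.0154, limma). Its later values were 0.32 at 6 h (adjusted p = 0.639), 1.10 at 12 h (adjusted p = 0.0502) and 0.55 at 24 h (adjusted p = 0.360, limma). Class I genes are close in sequence and the probe sequences were not used here, so signal shared between HSP17.6A, HSP17.6B and HSP17.8 cannot be told apart from their own.

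Not all of the family followed. HSP15.4, singled out after its values were seen, had log2 changes of -1.13, -1.34 and -1.53 at 4, 6 and 12 h (standard error 0.39, adjusted p = 0.0447, 0.0152 and 0.00556, limma). It was the 1 gene of the 13 called lower at these times, beside 2.60%, 3.56% and 4.76% of all probe sets. It read 8.73, 8.35 and 8.81 after 12 h, against 9.74, 10.44 and 10.28 in cold acclimated plants. At 4 h its call was lost without cold acclimated replicate 2 or 3 or 4 h replicate 1 or 2, and at 6 h without cold acclimated replicate 2 or 3 or 6 h replicate 1 or 2. HSP22.0, an endoplasmic reticulum protein that is sharply induced in heat stress, stayed between 2.75 and 3.55 on all arrays and changed by 0.30 at 2 h (adjusted p = 0.195, limma). HSP17.6C, HSP14.7, HSP21.7 and the mitochondrial HSP26.5 passed both thresholds in none of the comparisons with cold acclimated plants. HSP21.7 missed only the fold threshold, with 0.71 at 2 h (adjusted p = 0.0287), 0.74 at 12 h (adjusted p = 0.0134) and 0.85 at 24 h (adjusted p = 0.00588), and -0.70 in cold acclimated against non-acclimated plants (adjusted p = 0.0209, limma). HSP26.5 gave 0.68 at 2 h (adjusted p = 0.221) and -0.99 in the cold (adjusted p = 0.0518, limma).

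**Figure D4:**
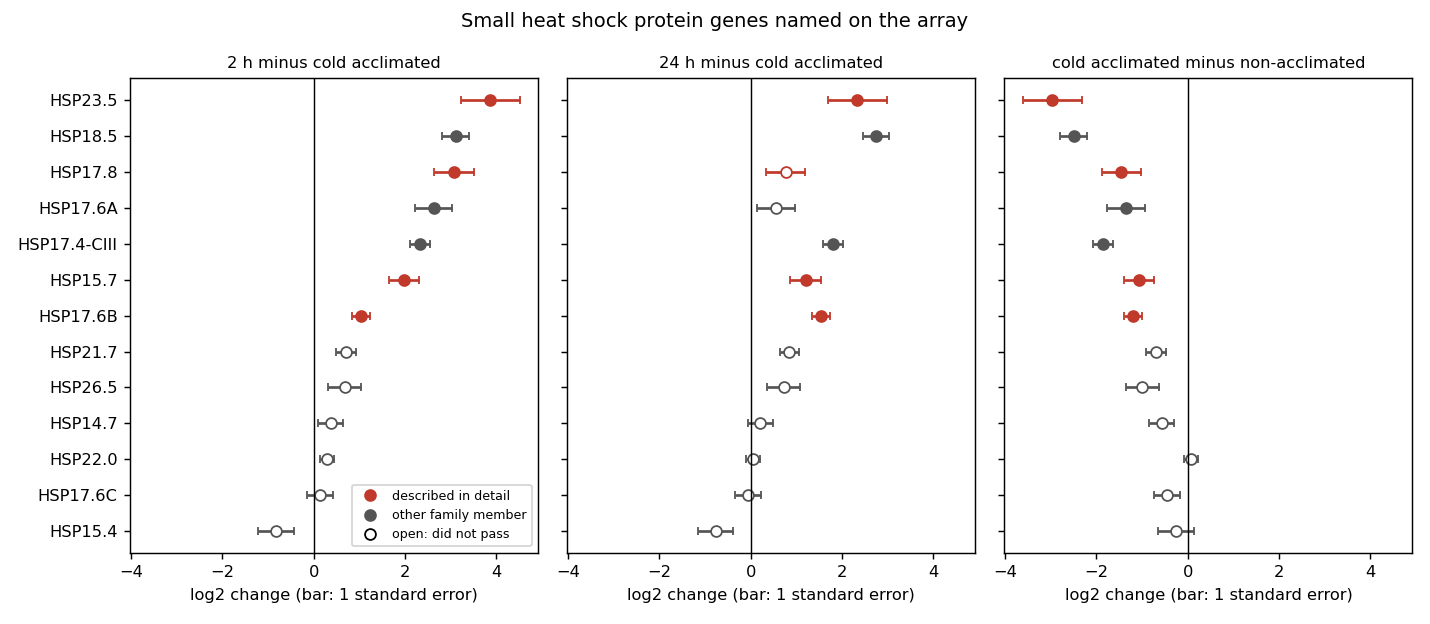
Log2 change with 1 standard error (x axes) of the 13 small heat shock protein genes named on the array, for plants deacclimated for 2 h or 24 h against cold acclimated plants and for cold acclimated against non-acclimated plants. Red points are the 4 members described gene by gene, and filled points passed both thresholds: 7 genes at 2 h, 5 at 24 h and 7 in the cold.

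Of 21 heat shock factor genes, HSFA2 and HSFA8 were the 2 that could be named, both through the list of regulated transcripts. HSFA8 ran on another schedule, with log2 changes against cold acclimated plants of -0.33 at 2 h (adjusted p = 0.422), 1.06 at 6 h (adjusted p = 0.00527) and 0.08 at 24 h (adjusted p = 0.868, standard error 0.26, limma), and it was also called higher at 12 h (adjusted p = 0.000910, limma). Cold acclimated and non-acclimated plants differed by 0.16 in HSFA8 (adjusted p = 0.721), against -4.31 in HSFA2.

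Heat-induced chaperones and known HSFA2 targets made up another list, with 9 of 20 genes named, 4 of them only through the list of regulated transcripts. Of the 9, the numbers called higher than in cold acclimated plants were 3, 4, 5, 4 and 5 after 2, 4, 6, 12 and 24 h, beside between 2.88% and 4.41% of all probe sets. In cold acclimated plants 5 of the 9 were lower than in non-acclimated plants, beside 4.26%. HSP101, GOLS2, BAG6 and MIPS2, the 4 named only through the list of regulated transcripts, come from a set selected for a change. The counts therefore cannot be compared with the shares. Of the genes named by the platform, ROF2 and HOP3 alone were called higher, each at all 5 times. The 3 genes called at 2 h were ROF2, with log2 changes of 3.00 and 1.67 after 2 and 24 h (standard error 0.36, adjusted p = 3.08e-05 and 0.00182, limma), HSP101, with 2.27 and 1.60 (standard error 0.27, adjusted p = 2.55e-05 and 0.000219), and the co-chaperone HOP3, which links Hsp70 to Hsp90, with 3.21 and 2.69 (standard error 0.45, adjusted p = 0.000117 and 0.000212). FES1A, HSA32 and BOB1 were called at no time against cold acclimated plants, though HSA32 was lower at 12 h than in non-acclimated plants, by -1.002 (adjusted p = 0.000107, limma). Against cold acclimated plants BOB1 missed only the fold threshold, with -0.71, -0.68 and -0.56 at 6, 12 and 24 h (adjusted p at most 0.00394, limma). HSA32 did so at 12 h, with -0.53 (adjusted p = 0.00682, limma). MIPS2, a synthase of the inositol pathway singled out after its values were seen, differed by -0.61 at 2 h (adjusted p = 0.0626, limma). It differed by -0.88 at 6 h (adjusted p = 0.00599) and rose by 1.94 at 24 h (standard error 0.22, adjusted p = 5.45e-06, limma). Against non-acclimated plants MIPS2 differed by -2.44 at 2 h (adjusted p = 2.83e-06, limma). GOLS2 went from 0.69 at 2 h (adjusted p = 0.0788) and 0.82 at 4 h (adjusted p = 0.0328) to 1.96 at 24 h (adjusted p = 2.97e-05, limma). BAG6 was called higher at 4 h and 6 h, by 1.13 and 1.01 (adjusted p = 0.000889 and 0.00172, limma). At 2 h and 12 h BAG6 missed only the fold threshold, with 0.78 and 0.73 (adjusted p = 0.0162 and 0.0131, limma). Its difference in the cold was 0.66 (adjusted p = 0.0262, limma).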

How the data were processed

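Affymetrix Arabidopsis Gene ST arrays were hybridised with RNA of 21 rosette pools. The authors deposited log2 values of each probe set, obtained by RMA in RobiNA, whose version the sources used here do not give. From 38408 probe sets, 7079 at the head of the table, numbered in steps of 2 and absent from the platform annotation, were set apart. Names came from that annotation (16670 probe sets with 1 gene) or, for 682 more, from the study's list of regulated transcripts. No sequences were printed, and the promoter motifs planned were not searched. Differences were fitted with limma 3.58.1 (lmFit, eBayes) in R 4.3.3 over the 7 groups (14 residual and 2.69 prior degrees of freedom), and the fit was tested on simulated data. The 3 arrays per group limit the precision. Alternatives were cyclic loess, median centring, repeated quantile normalization, the whole table, a filter on dim probe sets, 2-group fits, a variance trend, array weights, a replicate block, joint adjustment, no fold threshold and leaving out each array. The genes named are the 5 members, list genes with the largest changes past both thresholds at 2 h, other list genes set beside them, and the closest profiles. Members and lists were chosen with earlier results of these data known.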

Additional observations from a re-analysis of the deposited data

Results flagged for a closer look

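The size of the rise against cold acclimated plants differed between times for 3 genes, by a limma test of the difference itself, in comparisons added after the values were seen. HSFA2 was lower than at 2 h by -3.96 at 6 h, -4.03 at 12 h and -2.73 at 24 h, and HSP17.8 by -2.59, -2.39 and -2.31. In each of these comparisons the 3 later arrays all lay below the 3 arrays of 2 h, and the calls held in every alternative run for them. HSP15.7 was lower at 24 h than at 4 h by -1.14, with all 3 arrays of 24 h below those of 4 h, and this call was lost in 4 of the 6 cases in which an array of these groups was left out. For these separations of arrays no share of all probe sets was counted.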

How the results depend on the processing

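The rise of HSFA2 at 2 h against cold acclimated plants ranged between 6.07 and 6.53 over all alternatives. Counts of genes called changed by over 1.5 times in these cases: 1 gene higher at 2 h than in non-acclimated plants with array weights, 0 higher at 4 h and 0 lower at 12 h than in non-acclimated plants with only the arrays of the groups compared, and, with p adjusted over the 15 comparisons together, 1 lower at 4 h than at 2 h and 2 lower at 6 h than at 4 h. Leaving out single arrays gave 2 to 4 genes higher at 24 h than in cold acclimated plants, 3 to 5 lower in cold acclimated than in non-acclimated plants, and, against non-acclimated plants, 0 to 3 higher at 2 h, 0 to 1 higher at 4 h, 0 to 1 lower at 6 h and 0 to 1 lower at 12 h. The causes were not tested beyond the smaller number of arrays.

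Signs turned only for values that passed no threshold. Against non-acclimated plants HSP17.6B was -0.0198 at 4 h and -0.0163 at 6 h after cyclic loess, and HSP23.5 at 12 h was 0.15 with array weights, which also gave -0.10 for HSP17.6B from 4 h to 6 h, 0.29 for HSFA2 from 6 h to 12 h and 0.0164 for HSP17.6B from 12 h to 24 h. Cyclic loess gave 0.0197 for the last of these. With single arrays left out, values against non-acclimated plants ran from -0.32 to 0.0227 (HSP17.6B, 2 h), -0.51 to 0.88 (HSFA2, 4 h), -0.11 to 0.23 (HSP17.6B, 4 h), -0.20 to 1.06 (HSP23.5, 4 h), -0.13 to 0.24 (HSP17.6B, 6 h), -0.48 to 0.67 (HSP23.5, 12 h) and -0.22 to 0.33 (HSP15.7, 24 h). Between times they ran from -1.11 to 0.15 (HSP23.5, 4 h minus 2 h), -0.19 to 0.13 (HSP17.6B, 6 h minus 4 h), -0.69 to 0.45 (HSFA2), -0.13 to 0.63 (HSP17.8) and -0.0619 to 0.26 (HSP15.7) for 12 h minus 6 h, -0.11 to 0.0589 (HSP17.6B) and -0.36 to 0.41 (HSP17.8) for 24 h minus 12 h, and -0.0532 to 0.52 (HSP17.8) and -0.0919 to 0.54 (HSP23.5) for 24 h minus 6 h.

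Of the other recomputed single values, apart from those with an array left out, 808 kept the direction and side of the threshold, 7 lost and 3 gained a call. Of the 7, 4 were lost with only the arrays of the groups compared: HSP15.7 at 24 h against cold acclimated plants (adjusted p = 0.0525), in the cold and at 4 h against non-acclimated plants, and HSFA2 at 12 h against non-acclimated plants (limma). With the replicate number as a block, the counts against cold acclimated plants were 5, 5, 4, 4 and 4 at 2, 4, 6, 12 and 24 h, and the block changed no call. The numbers are not stated to mark shared material. Of 63 pairs of arrays with the same number, 41 had deviations correlated above 0.1, and 19 of the 21 arrays correlated best with their own number.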
